A study of Homo sapiens with 40 samples.

Results

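Genes of the cluster of differentiation (CD) nomenclature were followed in 2 lymphoma cell lines as NF-kB or STAT3 signalling was turned down or raised. Members were all genes whose single symbol in the array annotation was CD followed by digits and at most one capital letter, leaving out CD274, CD80 and CD83. This gave 59 genes, read by 203 probes, of 4604 genes and 10169 probes with 1 symbol. The name alone chose them, so they share no pathway, and lineage markers of T cells and myeloid cells stand beside B cell antigens. One member, CD5L, is by its name a relative of CD5 but is known as a secreted protein. Both lines, OCI-Ly3 and OCI-Ly10, are long-established cultures from diffuse large B cell lymphomas of the activated B cell-like subtype.

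The data were 40 two-colour arrays, each with treated cells in the Cy5 channel and control cells of the same line in the Cy3 channel. IL-10 at 50 ng/ml was given to OCI-Ly3 for 1, 3, 6, 24, 48 or 96 h (10 arrays), and IL-6 at 50 ng/ml to OCI-Ly10 for 0.5, 1, 3, 6 or 24 h (8 arrays), each against the line without the cytokine. JAK inhibitor I, a small molecule that blocks the Janus kinases upstream of the STAT factors, was used at 5 uM in OCI-Ly10 for 3 or 6 h (4 arrays). A pool of siRNAs against STAT3 at 4 uM was put into OCI-Ly10 for 8, 24 or 48 h and compared with cells transfected without siRNA (5 arrays). An IkB super-repressor (IkBsr), a form of the NF-kB inhibitor that resists degradation, was induced with 20 ng/ml doxycycline in OCI-Ly3 for 1, 1.5, 2, 3, 4 or 6 h (9 arrays) and in OCI-Ly10 for 1.5, 3, 6 or 24 h (4 arrays). The controls of those arrays carried the same inducible construct without induction. No array used here holds doxycycline without the construct or a non-targeting siRNA, so an effect of doxycycline or of siRNA as such cannot be told apart from that of the target.

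CD molecules are surface proteins that antibodies first defined on leukocytes. On B cells they include the signalling chains and co-receptors of the antigen receptor, receptors for T cell help, tetraspanins that organise the membrane, lipid-presenting CD1 proteins and enzymes such as CD38. IL-6 and IL-10 bind their receptors and activate Janus kinases, which phosphorylate STAT3, while NF-kB is held in the cytoplasm by IkB proteins until these are degraded. Both pathways are known to be active in this form of lymphoma.

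Values are log ratios of treated over control cells, centred on each array's median, with probes averaged per gene. They are read as log2, although the base is not stated in the sources used here; the range of -7.868 to 5.81 over all probes fits base 2 or the natural base, not base 10, and these could not be separated. A ratio gives no level, so whether a line carries an antigen at all, or the markers of its labelled type, could not be seen. In the bulk RNA measured here, fewer cells of a type and less RNA per cell cannot be told apart. All arrays had the same dye orientation, and the labels do not say whether numbered replicates were separate cultures or whether arrays shared a control RNA, so the tests measure the spread between arrays, which may be technical. Of the members, 37 had a value on all 40 arrays. Blank cells made up 17.4% of the members' values with IL-6 and 1.43% in the other experiments. The 2 replicates of the super-repressor in OCI-Ly3 at 2 h correlated at -0.29 over members, the lowest of any replicate pair. The targets moved on their arrays: STAT3 was -1.99 at 8 h, -1.46 and -2.26 at 24 h and -1.74 and -0.89 at 48 h of siRNA, and NFKBIA, which encodes IkB alpha and is a known NF-kB target, fell by 1.61 ± 0.10 (SE, 7 arrays) in OCI-Ly3 and by 1.03 ± 0.15 (SE, 3 arrays) in OCI-Ly10.

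In each experiment, limma tested whether the mean over chosen time points (a window) differed from 0, across all genes with enough values, and a gene with a Benjamini-Hochberg adjusted p under 0.05 counts as called. If arrays shared a control RNA, its own spread does not enter this test. With IL-10 (1 to 96 h), 16 of the 56 members tested rose and 12 fell, where 16.1% of all 4383 genes tested rose and 19.2% fell. Called members were thus 50% of those tested against 35.3% of all genes. With the replicate numbers as a block, CD164, CD320, CD4 and CD47 lost their IL-10 call. The median of the members tested was 0.01, and that of all genes -0.02. With the super-repressor in OCI-Ly3 (2 to 6 h), 6 of 58 members rose and 2 fell, 13.8% together, where 9.16% of all genes rose and 4.87% fell, 14% together; medians were -0.07 and -0.03. With the super-repressor in OCI-Ly10 (3 to 24 h), none of 59 members rose and 1 fell, where 0.221% of all genes rose and 0.31% fell; medians were 0.05 and -0.01. With IL-6 (1 to 24 h), 2 of 43 members rose and 0 fell, where 3.48% of all genes rose and 1.06% fell; medians were 0.05 and -0.01. STAT3 siRNA (24 and 48 h) raised 2 of 58 members and lowered 0, where 1.27% of all genes rose and 2.05% fell; medians were -0.02 and -0.01. JAK inhibitor I (3 and 6 h) raised 1 of 59 and lowered 1, where 1.09% of all genes rose and 2.17% fell; the members' median was 0.01. With arrays scaled to equal spread, 11 of 43 members were called with IL-6 (8 higher, 3 lower). Of all 3301 genes 455 were, against 150 as first scaled. With the super-repressor in OCI-Ly10, scaling gave 8 of 59 members (6 higher, 2 lower) and 238 of 4515 genes, against 24 genes as first scaled. In both windows the scaled members' share was above that of all genes. With IL-10, scaling gave 24 of 56 members and 1158 of 4383 genes. As first scaled, the members' shares outside the IL-10 experiment rest on 8 calls or fewer, and in the OCI-Ly3 super-repressor, IL-6, siRNA and inhibitor windows they lay near those of all genes. Over the 6 windows, 25 members had no call, 27 had 1, 6 had 2 (CD24, CD38, CD47, CD5, CD53 and CD63) and 1, CD36, had 4.

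**Figure D1:**
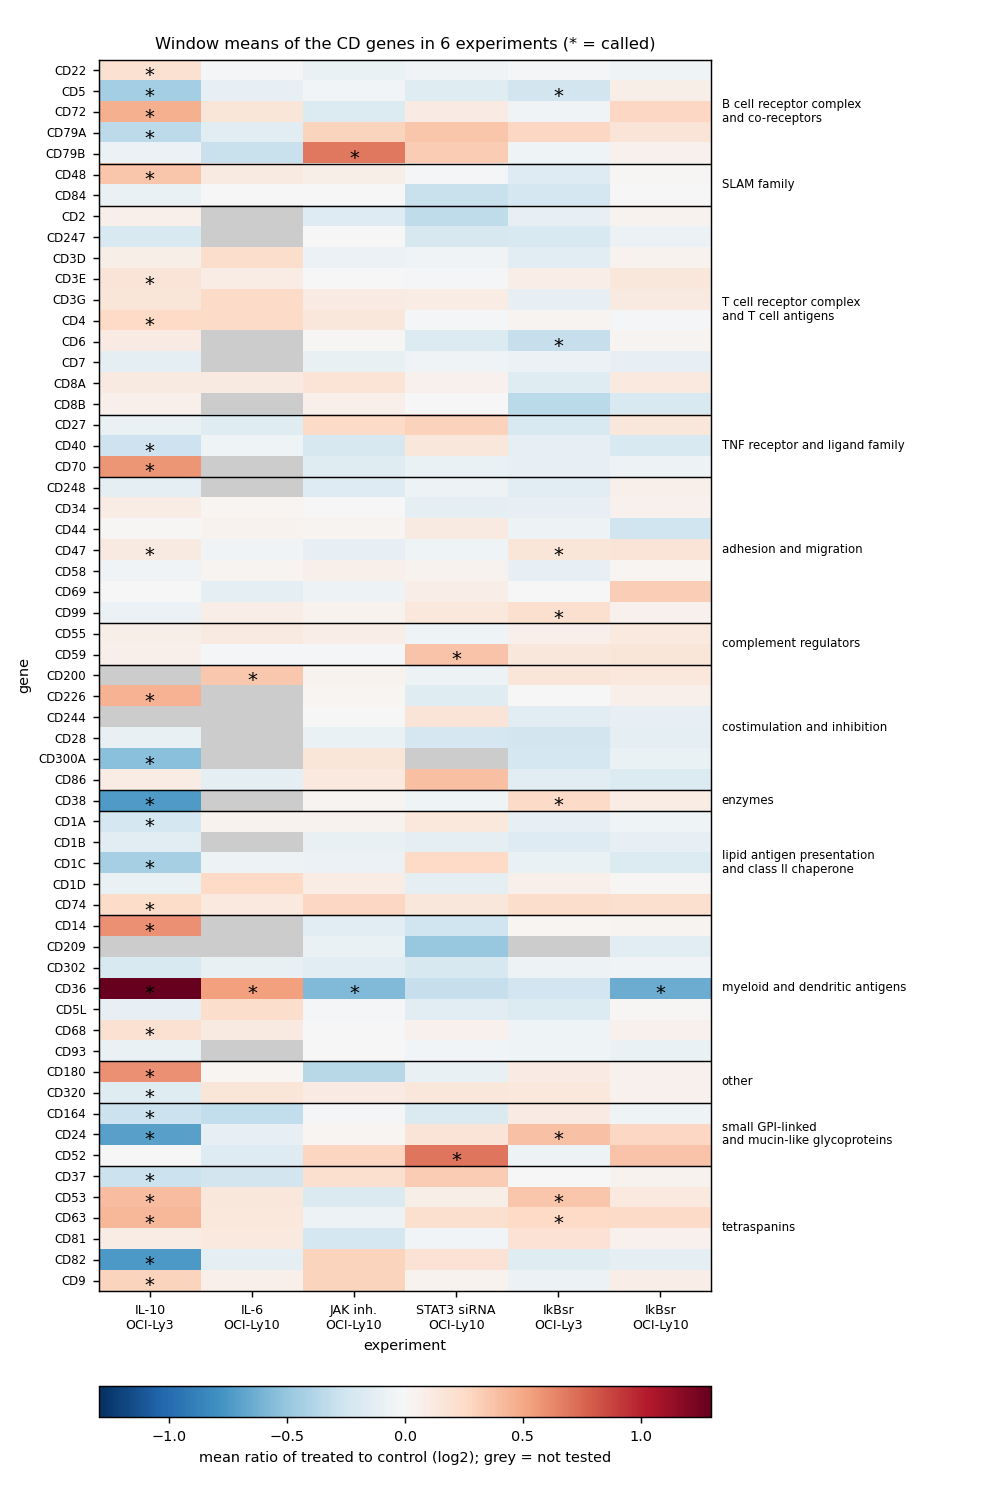
Window means of the 59 members (rows, by role) in the 6 experiments (columns) as log2 ratios of treated over control cells; an asterisk marks an adjusted p under 0.05 and grey a member not tested. The IL-10 column holds 28 of the marks, and CD36 has the darkest cell at 1.29.

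CD36, a scavenger receptor for oxidised lipoproteins and long-chain fatty acids best known on monocytes, platelets and fat cells, had the highest window mean of any member with IL-10 and with IL-6 and the lowest with JAK inhibitor I and with the super-repressor in OCI-Ly10. The RefSeq promoter table (GRCh38.p14) lists 6 start sites for CD36. The 250 bases before the fifth are shown because they hold a match to TTCNNNGAA, the palindromic core that STAT factors are known to bind. They lie at chr7:80645999-80646248 on the plus strand, with the match in capitals.
CD36: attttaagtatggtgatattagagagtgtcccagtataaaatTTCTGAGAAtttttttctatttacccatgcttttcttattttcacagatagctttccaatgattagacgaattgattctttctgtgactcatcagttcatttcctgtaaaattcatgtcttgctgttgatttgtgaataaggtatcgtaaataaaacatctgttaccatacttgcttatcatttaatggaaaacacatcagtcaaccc
The other start windows of CD36 held no such match. Which start site these cells use was not measured. Among all 35116 start windows of the table, each 300 bases long (250 before and 50 after the start), 7.66% held TTCNNNGAA, against 8.22% of the 73 windows of the 42 members it lists. Windows can overlap, and among the members' windows starts 1 and 2 of CD59 share 1 match. A match describes the letters and shows no binding.

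With IL-10, the 10 CD36 values were 0.56 and 0.52 at 1 h, 1.82 and 2.22 at 3 h, 2.52 and 2.09 at 6 h, 2.01 and 1.38 at 24 h, 0.79 at 48 h and 0.41 at 96 h. Every array lay above 0, and the 3 to 24 h arrays lay above those of 1, 48 and 96 h. The window mean was 1.29 ± 0.08 (SE, 10 arrays; 2.45-fold, adjusted p = 2.81e-10). With IL-6, CD36 was 0.05 at 0.5 h, 0.36 and 0.26 at 1 h, 0.72 and 0.42 at 3 h, 0.59 and 0.34 at 6 h and 0.80 at 24 h. All 8 lay above 0, the 0.5 h array nearest to it. The window mean was 0.53 ± 0.09 (SE, 7 arrays; adjusted p = 0.00314; 0.0551 with runs of array identifiers as a random block). IL-10 in OCI-Ly3 exceeded IL-6 in OCI-Ly10 over the shared times of 1, 3, 6 and 24 h by 1.11 ± 0.13 (adjusted p = 1.24e-05), a difference that joins cytokine and line, which cannot be told apart. In the opposite direction, JAK inhibitor I gave -0.34 and -0.31 at 3 h and -1.16 and -0.46 at 6 h. All 4 values were negative, one of them well apart from the rest, and the mean was -0.57 ± 0.12 (adjusted p = 0.0108). Without 6 h replicate 1 the mean was -0.39 and the call was lost. It was lost too without either 3 h array and in a fit on the inhibitor arrays alone. The super-repressor in OCI-Ly10 gave -0.08 at 1.5 h, then -0.15, -0.62 and -1.15 at 3, 6 and 24 h, with 1 array a time point. Each later array was lower than the one before, and the mean of the last 3 was -0.64 ± 0.14 (adjusted p = 0.0377; 0.372 with the identifier runs as a block). The SE and p come from the spread in the other experiments, not from these 3 arrays. Leaving out the 24 h array moved the mean to -0.39 and ended the call, as leaving out the 6 h array did. The call was lost too with the median over probes and with the replicate block (adjusted p = 0.0525).

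In the 2 windows where CD36 was not called, its means were below 0. The super-repressor in OCI-Ly3 gave 0.06 and 0.27 at 2 h, -0.16 at 3 h, -0.16 and -0.24 at 4 h and -0.60 and -1.02 at 6 h, a window mean of -0.25 ± 0.09 (adjusted p = 0.0775). The 6 h arrays were the lowest and the 2 h arrays were above 0. STAT3 siRNA gave -0.39 and -0.27 at 24 h and -0.43 and -0.12 at 48 h, a mean of -0.30 ± 0.12 (adjusted p = 0.156). All 4 were negative. The 4 probes of CD36 had IL-10 window means from 1.01 to 1.49, and IL-6 ones from 0.48 to 0.59.

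**Figure D2:**
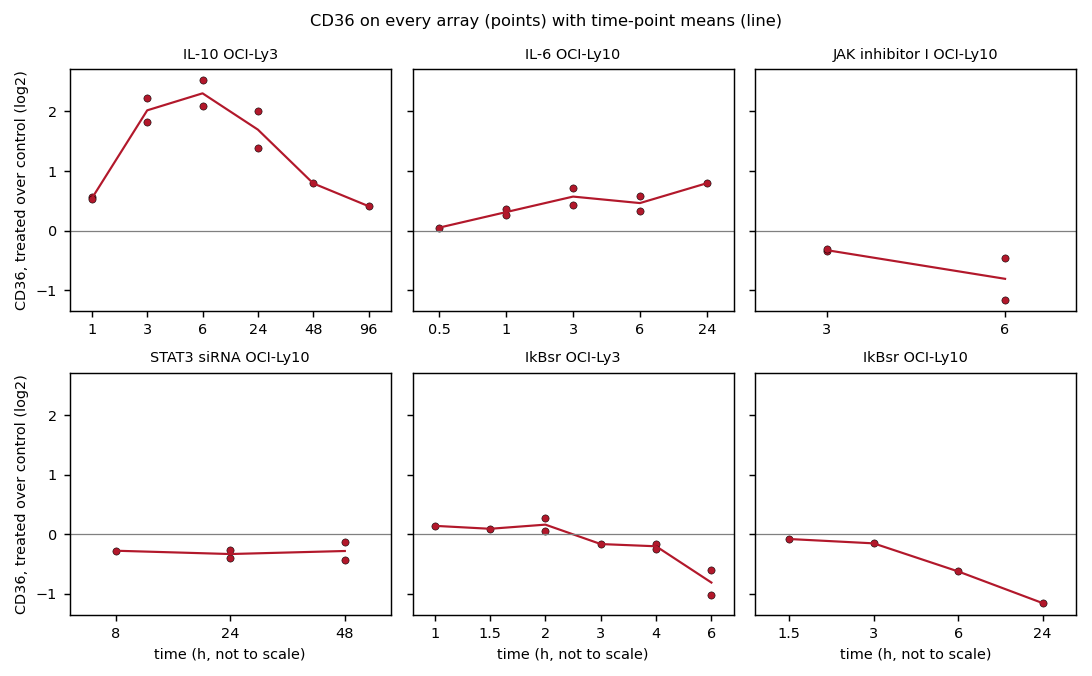
CD36 as the log2 ratio of treated over control cells (y axis) against time in hours (x axis, evenly spaced) in the 6 experiments; points are arrays and lines join time-point means. The IL-10 arrays peak at 2.52 at 6 h, and the last super-repressor times reach -1.02 on 1 of 2 arrays in OCI-Ly3 and -1.15 in OCI-Ly10.

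Among the other myeloid and dendritic antigens, IL-10 raised CD14, the co-receptor for bacterial lipopolysaccharide, and CD68, a lysosomal glycoprotein of macrophages. CD14 was 0.45 and 0.36 at 1 h, 0.76 and 1.14 at 3 h, 1.00 and 0.70 at 6 h, 0.84 and 0.51 at 24 h, 0.25 at 48 h and 0.45 at 96 h. All 10 arrays were positive, highest at 3 and 6 h, with a mean of 0.60 ± 0.09 (SE, 10 arrays; adjusted p = 1.49e-04) from 1 probe. It was outside the test with IL-6, where 1 array had a value, and the other 4 windows held no call. An excerpt of the start window of CD14, the match with up to 30 bases on each side, is shown because CD14 is one of 3 called IL-10 risers with a TTCNNNGAA match; the others are CD36 and CD63. The excerpt lies at chr5:140633260-140633328 on the minus strand, with the match in capitals.
CD14: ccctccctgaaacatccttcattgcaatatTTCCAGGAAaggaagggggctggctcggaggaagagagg
Those 3 genes were of 13 called risers in the table (23.1%). No called faller of the 9 listed had a match, and 9.38% of all 27305 genes had one. These gene shares depend on the number of start windows, 30 for the 13 risers and 14 for the 9 fallers. Counted by window, 10% of the risers' windows held a match, against 7.66% of all windows. CD68 ranged from -0.04 to 0.52 with a median of 0.09, highest at 96 h, and its mean was 0.19 ± 0.04 (adjusted p = 9.56e-04). CD93, CD302 and CD5L had no call in any window. CD209, a lectin of dendritic cells, had too few values with IL-10, IL-6 and the super-repressor in OCI-Ly3, and gave the lowest siRNA mean of any member, -0.50 ± 0.19 (adjusted p = 0.191), with values from -0.96 to -0.15.

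Of the 5 genes of the B cell receptor complex and its co-receptors, IL-10 raised 2 and lowered 2. Of all genes, 16.1% rose and 19.2% fell. CD72, an inhibitory co-receptor, was 0.08 and 0.01 at 1 h, 0.32 and 0.04 at 3 h, -0.03 and 0.06 at 6 h, 0.26 and 0.46 at 24 h, 0.66 at 48 h and 1.53 at 96 h. The first 6 arrays lay at 0.32 or below and the last value was the highest; the window mean was 0.46 ± 0.06 (adjusted p = 1.23e-05). CD22, an inhibitory lectin that binds sialic acid, was highest at 48 h (0.35) and 96 h (0.61), with a mean of 0.20 ± 0.05 (adjusted p = 0.00295), 0.11 and not called without the 96 h array. CD79A, the signalling chain Ig alpha, was 0.20 and 0.11 at 1 h, 0.30 and -0.27 at 3 h, -0.22 and -0.64 at 6 h, -0.40 and -0.79 at 24 h, -0.67 at 48 h and -0.51 at 96 h. All arrays from 6 h on were negative, and the mean was -0.34 ± 0.08 (adjusted p = 0.00277). CD5, a scavenger-receptor family protein that dampens antigen receptor signals, was -0.22 and -0.61 at 24 h, -1.10 at 48 h and -0.65 at 96 h, against -0.36 to 0.01 up to 6 h. Its mean was -0.44 ± 0.06 (adjusted p = 1.58e-05). CD79B, the partner chain Ig beta, averaged -0.08 with IL-10 and was not called.

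CD79B was the member that rose with JAK inhibitor I. Its values were 0.34 and 0.33 at 3 h and 1.52 and 0.54 at 6 h, a mean of 0.68 ± 0.13 (SE, 4 arrays; 1.61-fold, adjusted p = 0.00398). One array lay far above the other 3, and without it the mean was 0.44 and was not called. On that array, 6 h replicate 1, CD82 (0.94), CD37 (0.88), CD74 (0.87), CD52 (0.75) and CD79A (0.67) were also high, where replicate 2 read 0.10, 0.09, 0.11, 0.14 and 0.14. With the super-repressor in OCI-Ly3, CD5 was the one gene of this group called: -0.22 and -0.34 at 2 h, -0.18 at 3 h, -0.28 and -0.37 at 4 h and -0.05 and -0.28 at 6 h. All 7 were negative, with a mean of -0.24 ± 0.07 (adjusted p = 0.0333; 0.197 with the identifier runs as a block).

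Of 10 T cell receptor and T cell antigen genes, IL-10 raised CD3E, a chain of the CD3 complex (mean 0.17 ± 0.04, adjusted p = 0.00314, highest at 96 h with 0.51), and CD4 (0.26 ± 0.08, adjusted p = 0.0175), whose highest value was 0.92 on 24 h replicate 2. Of all genes, 16.1% rose with IL-10 and 19.2% fell. CD4 was not called with the replicate numbers as a block (adjusted p = 0.0591). Without the 96 h array, CD3E averaged 0.10 and was not called. CD3D, CD3G, CD247, CD2, CD7, CD8A and CD8B had no call in any window. CD6, a relative of CD5, fell with the super-repressor in OCI-Ly3: 0.18 and -0.63 at 2 h, -0.30 at 3 h, -0.35 and -0.51 at 4 h and -0.45 and -0.02 at 6 h. The arrays disagreed in sign at 2 h, and the mean was -0.30 ± 0.10 (adjusted p = 0.0446; 0.219 with the identifier runs as a block). CD8B had the lowest mean of that window, -0.35 ± 0.13, and was not called (adjusted p = 0.0718).

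In the TNF receptor and ligand family, IL-10 raised CD70, the ligand of CD27, and lowered CD40, the receptor for T cell help. CD70 was 0.34 at 1 h, 1.08 and 0.71 at 3 h, 0.55 and -0.11 at 6 h, 0.48 and 0.04 at 24 h, 0.58 at 48 h and 1.14 at 96 h, with 1 array blank. It was positive on 8 of 9 arrays, and its replicates stood far apart at 6 and 24 h; the mean was 0.57 ± 0.08 (adjusted p = 8.68e-05) from 1 probe. CD40 was 0.13 and -0.08 at 1 h and -0.68 to -0.21 from 6 h on, with a mean of -0.27 ± 0.06 (adjusted p = 0.00117). Its 5 probes were not of one sign, with means from -0.71 to 0.17. CD27 itself was not called in any window.

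Costimulatory and inhibitory receptors gave 3 calls, where 16.1% of all genes rose and 19.2% fell with IL-10 and 3.48% rose with IL-6. CD226, an activating receptor of T and NK cells, was -0.17 and 0.08 at 1 h of IL-10, -0.16 and 0.09 at 3 h, -0.04 and 0.48 at 6 h, 0.42 and 0.82 at 24 h, 0.77 at 48 h and 1.16 at 96 h. The last 4 arrays stood above all others but one, and the mean was 0.45 ± 0.08 (adjusted p = 3.56e-04). CD300A, an inhibitory receptor, fell with IL-10 by 0.55 ± 0.15 (8 arrays; adjusted p = 0.0153), although its 6 h arrays were -1.25 and 0.34. CD200, an inhibitory ligand, rose with IL-6 by 0.35 ± 0.07 (6 arrays; adjusted p = 0.0087). Its values were 0.07 and 0.15 at 1 h, 0.15 and 0.07 at 3 h, 1.01 at 6 h and 0.17 at 24 h. One array stood far above the others, which lay between 0.07 and 0.17. It was 6 h replicate 2, the only 6 h array with a value for CD200. On it CD8B (1.37), CD14 (1.35), CD244 (1.08) and CD84 (0.99) were also high, while CD69 (-0.42) and CD79B (-0.21) were among those below 0. With runs of consecutive array identifiers, which the labels do not describe, as a random block, the adjusted p of CD200 was 0.0846. CD28, CD86 and CD244 had no call.

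The tetraspanins, small membrane organisers, gave 3 rises and 2 falls among 6 with IL-10, where 16.1% of all genes rose and 19.2% fell. CD53, a pan-leukocyte tetraspanin, was 0.26 and 0.15 at 1 h, 0.44 and 0.36 at 3 h, 0.60 and 0.23 at 6 h, 0.38 and 0.26 at 24 h, 0.36 at 48 h and 0.71 at 96 h. CD63, found in late endosomes and exosomes, was 0.24 and 0.14 at 1 h and 0.56 to 0.75 from 24 h on. Both were positive on all 10 arrays, with means of 0.40 ± 0.05 (adjusted p = 2.63e-06) and 0.43 ± 0.05 (adjusted p = 3.78e-06). CD9, known for roles in cell fusion and motility, was also positive on all 10, with a mean of 0.29 ± 0.07 (adjusted p = 0.00432). CD82, known as a suppressor of metastasis, had the lowest IL-10 mean of any member, -0.75 ± 0.09 (adjusted p = 3.12e-06, 1 probe). Its values were -0.11 and -0.26 at 1 h, 0.07 and -0.25 at 3 h, -0.87 and -0.73 at 6 h, -1.14 and -1.26 at 24 h, -1.02 at 48 h and -1.19 at 96 h. The 6 to 96 h arrays did not overlap those of 1 and 3 h. CD37, a tetraspanin of mature B cells, fell by 0.28 ± 0.07 (adjusted p = 0.00558). CD81 had no call in any window.

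CD53 and CD63 also rose with the super-repressor in OCI-Ly3. CD53 was 0.17 and 0.46 at 2 h, 0.26 at 3 h, 0.35 and 0.47 at 4 h and 0.55 and 0.32 at 6 h. All 7 were positive, and the mean of 0.36 ± 0.06 (SE, 7 arrays; adjusted p = 6.60e-04) was the one member call of this window that held with the identifier runs as a block (adjusted p = 0.0123). That block used 1 correlation pooled over all experiments, not a value estimated for this experiment. CD63 lay between 0.09 and 0.36, with a mean of 0.25 ± 0.06 (adjusted p = 0.0124); with the runs as a block its adjusted p was 0.0771. In OCI-Ly10 the super-repressor gave CD53 0.23, 0.13 and 0.03 and CD63 0.22, 0.20 and 0.31 at 3, 6 and 24 h, neither called.

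CD38, the ectoenzyme that uses NAD and a marker of germinal centre and plasma cells, moved in opposite directions with IL-10 and with the super-repressor in OCI-Ly3. With IL-10 it was 0.14 and -0.21 at 1 h, -0.29 and -0.58 at 3 h, -1.04 and -1.41 at 6 h, -0.89 and -1.15 at 24 h, -0.996 at 48 h and -0.69 at 96 h. The 6 h arrays were among the lowest, and the mean was -0.73 ± 0.06 (adjusted p = 2.42e-08); its 3 probes gave -0.80 to -0.69. The super-repressor gave 0.00 and 0.11 at 2 h, 0.16 at 3 h, 0.27 and 0.27 at 4 h and 0.53 and 0.51 at 6 h. The 6 h arrays were the highest, and the mean was 0.25 ± 0.07 (adjusted p = 0.0203; 0.0943 with the identifier runs as a block). The call was also lost without 6 h replicate 1, 2 h replicate 2 or 4 h replicate 2. In OCI-Ly10, CD38 read 0.04, 0.13 and 0.13 with the super-repressor, and 2 of 4 arrays were positive with STAT3 siRNA and with JAK inhibitor I. With IL-6 it had a value on 5 of 7 window arrays, from -0.24 to 0.47. The difference between IL-10 in OCI-Ly3 and IL-6 in OCI-Ly10 was -0.79 ± 0.10 (adjusted p = 5.75e-05).

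CD24, a heavily glycosylated GPI-anchored protein of developing B cells, showed the same pair of directions. It was 0.06 and -0.01 at 1 h of IL-10, -0.22 and -0.61 at 3 h, -0.55 and -0.96 at 6 h, -0.37 and -1.23 at 24 h, -1.09 at 48 h and -1.19 at 96 h, a mean of -0.71 ± 0.07 (adjusted p = 3.15e-07). At each of 3, 6 and 24 h replicate 2 was the lower. With the super-repressor in OCI-Ly3 it was 0.00 and 0.33 at 2 h, 0.37 at 3 h, 0.46 and 0.52 at 4 h and 0.57 and 0.40 at 6 h. Its mean of 0.38 ± 0.08 (adjusted p = 0.00713; 0.0538 with the identifier runs as a block) was the highest of any member there. In OCI-Ly10 the super-repressor gave 0.22, 0.15 and 0.43, a mean of 0.27 ± 0.12 that was not called (adjusted p = 0.739). The 7 probes of CD24 gave IL-10 means from -1.16 to 0.11; the gene has near-identical copies in the genome, so which transcripts these probes read is uncertain. Excerpts of the start windows of CD24 and CD300A, cut in the same way, are shown because these were the 2 of 9 listed IL-10 fallers (22.2%) with a match to the NF-kB consensus (capitals). Of the 13 listed risers, CD63 and CD74 also had one (15.4%), as did 7.09% of all genes. The excerpt of CD24 lies at chr6:106975660-106975729 on the minus strand, and that of CD300A at chr17:74466212-74466281 on the plus strand, where a second, overlapping match begins 1 base on.
CD24: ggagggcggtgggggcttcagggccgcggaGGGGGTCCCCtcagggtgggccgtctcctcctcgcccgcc
CD300A: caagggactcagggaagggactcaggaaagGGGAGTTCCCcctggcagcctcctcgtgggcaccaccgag
The NF-kB consensus stood in 5.91% of all start windows and 11% of the members' windows. By window it stood in 10% of the 30 of the risers and 21.4% of the 14 of the fallers. Windows can overlap and count a site again: starts 1 and 2 of CD24 share 1 site, as do starts 5 and 6 of CD63. The gene shares were not adjusted for the number of windows.

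CD52, a small GPI-anchored glycoprotein and the target of alemtuzumab, and CD59, which blocks the complement membrane attack complex, were the members that rose with STAT3 siRNA. CD52 was 0.24 at 8 h, 0.42 and 0.23 at 24 h and 0.74 and 1.40 at 48 h. The 48 h arrays lay above the others, and the window mean was 0.70 ± 0.11 (SE, 4 arrays; 1.62-fold, adjusted p = 0.00373). CD59 was 0.33 at 8 h, 0.42 and 0.23 at 24 h and 0.45 and 0.40 at 48 h, a mean of 0.37 ± 0.07 (adjusted p = 0.00912). All 5 arrays were positive and the 2 times overlapped. Both tests borrowed the spread of all 40 arrays; in a fit on the siRNA arrays alone neither was called (adjusted p = 0.305 for both). CD52 had its other high readings in OCI-Ly10, 1.02 at 24 h of the super-repressor (0.17 at 6 h; window mean 0.37 ± 0.13, the highest member mean there, adjusted p = 0.447) and 0.75 on the inhibitor array named above. On 48 h replicate 2 of the siRNA, CD79B (1.00), CD82 (0.94) and CD86 (0.82) were high too, against 0.28, -0.22 and 0.47 on replicate 1.

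CD164, a sialomucin of this same group, fell with IL-10 by 0.28 ± 0.10 (adjusted p = 0.0311), on values from -1.02 to 0.17. With replicate numbers as a block its adjusted p was 0.063. It also had the lowest IL-6 mean of any member, -0.32 ± 0.12, with all 8 arrays negative (-0.48 to -0.11) and no call (adjusted p = 0.126). CD55, the other complement regulator, was not called in any window.

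Lipid-presenting CD1 proteins and CD74, the invariant chain that guides class II molecules, gave 3 calls with IL-10. Of all genes, 16.1% rose and 19.2% fell. CD1C averaged -0.44 ± 0.08 (adjusted p = 3.61e-04): it was 0.07 and -0.22 at 1 h, 0.22 and -0.63 at 3 h, -0.20 and -0.76 at 6 h, -0.34 and -0.82 at 24 h, -0.50 at 48 h and -0.78 at 96 h. At each replicated time replicate 2 was lower than replicate 1. CD1A averaged -0.23 ± 0.04 (adjusted p = 6.97e-04), lowest at 48 h with -0.60. CD1 genes are close paralogs, and cross-hybridisation among their probes was not tested. CD74 rose by 0.24 ± 0.08 (adjusted p = 0.0259; 0.0621 with the identifier runs as a block), but its replicates split. Replicate 1 read 0.25, 0.54, 0.18 and 0.46 at 1, 3, 6 and 24 h, and replicate 2 read -0.16, -0.17, -0.19 and 0.05. CD1B and CD1D had no call in any of the 6 windows. CD1D differed between the cytokine experiments, at -0.12 with IL-10 and 0.26 with IL-6 over the shared times (difference -0.38 ± 0.11, adjusted p = 0.0309; 0.167 with the replicate block).

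In the SLAM family of lymphocyte contact receptors, CD48 rose with IL-10, with 0.82 at 48 h and 0.84 at 96 h, but its replicates split. Replicate 1 read -0.19, -0.20, -0.16 and 0.06 at 1, 3, 6 and 24 h, and replicate 2 read 0.18, 0.34, 0.35 and 0.68. The mean of CD48 was 0.37 ± 0.07 (adjusted p = 6.97e-04). CD84 was not called in any window. Of 7 adhesion and migration genes, CD47, the signal that restrains phagocytosis, rose with IL-10 by 0.12 ± 0.04 (adjusted p = 0.0341), carried by 0.59 and 0.30 at 6 h, and with the super-repressor in OCI-Ly3 by 0.16 ± 0.05 (adjusted p = 0.0386). With the identifier runs as a block neither was called (adjusted p = 0.122 and 0.198). CD99, a glycoprotein of leukocyte passage through endothelium, rose with the super-repressor in OCI-Ly3 by 0.21 ± 0.06 (adjusted p = 0.0204; 0.135 with the identifier runs as a block). CD44, CD58, CD69, CD34 and CD248 had no call. CD69, an early activation antigen, nevertheless read 0.15, 0.27 and 0.54 at 3, 6 and 24 h of the super-repressor in OCI-Ly10.

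CD180, a Toll-like receptor relative of B cells, was -0.20 and 0.12 at 1 h of IL-10, 0.03 and 0.19 at 3 h, -0.02 and 0.57 at 6 h, 0.11 and 0.98 at 24 h, 1.18 at 48 h and 1.48 at 96 h. The last 2 arrays were the highest, and the mean was 0.59 ± 0.09 (adjusted p = 7.24e-05). CD320, the receptor for the vitamin B12 carrier transcobalamin, fell to -0.40 at 48 h and -0.59 at 96 h, with values up to 0.30 at 3 h and a mean of -0.16 ± 0.05 (adjusted p = 0.0187; 0.0517 with the replicate block).

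**Figure D3:**
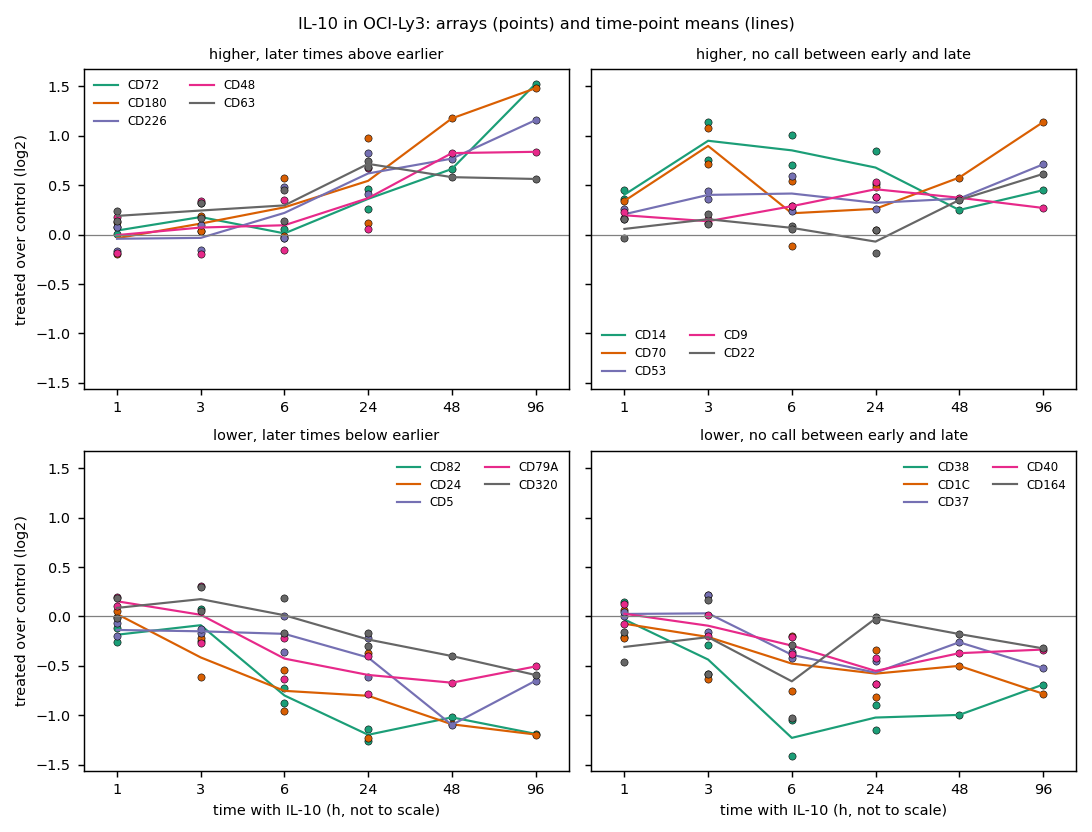
Log2 ratios of IL-10-treated over untreated OCI-Ly3 (y axis) against time in hours (x axis, evenly spaced) for 20 called members, in panels by direction and by whether late minus early was called; points are arrays, lines join time-point means, and 48 and 96 h have 1 array each. CD72 and CD180 reach 1.53 and 1.48 at 96 h, and CD82 ends at -1.19.

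The IL-10 experiment was long enough to compare late (24, 48 and 96 h) with early times (1, 3 and 6 h). The late-minus-early difference was called in 15 of 56 members, 7 higher and 8 lower late, 26.8% together, where 7.96% of all genes were higher and 5.52% lower, 13.5% together. With arrays scaled to equal spread 8 of 56 members and 295 of 4383 genes were called. In a fit on the IL-10 arrays alone 4 members were, CD180, CD226, CD72 and CD82. CD180 had the largest positive difference, from 0.12 early to 1.07 late (0.95 ± 0.19, adjusted p = 0.00164), followed by CD226 (0.80 ± 0.16, adjusted p = 0.00235) and CD72 (0.77 ± 0.13, adjusted p = 2.53e-04). CD48, CD63, CD68 and CD3E differed by 0.62, 0.38, 0.34 and 0.31. CD82 had the largest negative one, from -0.36 early to -1.14 late (-0.78 ± 0.18, adjusted p = 0.00596). CD36 came down from 1.62 to 0.97 (-0.66 ± 0.16, adjusted p = 0.0082), so its late mean was still above 0. CD24 (-0.65), CD5 (-0.57), CD79A (-0.50), CD320 (-0.50), CD1A (-0.37) and CD59 (-0.36) made up the rest; CD59 went from 0.25 to -0.11, and CD79A was not called with the identifier runs as a block (adjusted p = 0.0653). CD38 (-0.34 ± 0.11, adjusted p = 0.0583) and CD14 (-0.28 ± 0.19, adjusted p = 0.418) were not called.

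The 48 and 96 h arrays form a run of array identifiers of their own, so time and run cannot be told apart for them. Each of the other 2 runs holds 1, 3, 6 and 24 h. Their arrays also enter the late-minus-early difference that chose the 15 called members. Agreement in sign is thus partly built in, is no independent check, and was counted for called members only. Within those 2 runs, 24 h minus the mean of 1, 3 and 6 h had the sign of the late-minus-early difference in both runs for 13 of the 15 called members. For CD82 it was -0.83 in replicate 1 and -0.85 in replicate 2, for CD79A -0.49 and -0.52, for CD63 0.41 and 0.53, and for CD226 0.54 and 0.60. For CD72 it was 0.14 and 0.43, and for CD180 0.17 and 0.68, both under the full difference. The exceptions were CD36 (0.38 and -0.23) and CD5 (0.03 and -0.55). Without the 96 h array, CD72 (0.44), CD36 (-0.38), CD3E, CD68, CD59 and CD79A lost their call.

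Over the times that both cytokine experiments share, 4 of 45 members differed between IL-10 in OCI-Ly3 and IL-6 in OCI-Ly10, where 3.9% of all genes were higher with IL-10 and 5.6% lower. CD36 was higher with IL-10, and CD38, CD24 (-0.38 ± 0.11, adjusted p = 0.0402; 0.135 with the replicate block) and CD1D were lower. CD82 (-0.44 ± 0.14, adjusted p = 0.0586) and CD59 (0.24 ± 0.08, adjusted p = 0.0601) were not called. Between the lines, the super-repressor differed in 0 of 59 members over 1.5, 3 and 6 h, where 0% of 4384 genes were called in either direction by limma. Without adjustment 0 members and 108 genes had p under 0.05. These times had 1 array each in OCI-Ly10, as 1.5 and 3 h had in OCI-Ly3. The widest gaps between lines were not resolved: the members' differences lay between -0.29 and 0.23.

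**Figure D4:**
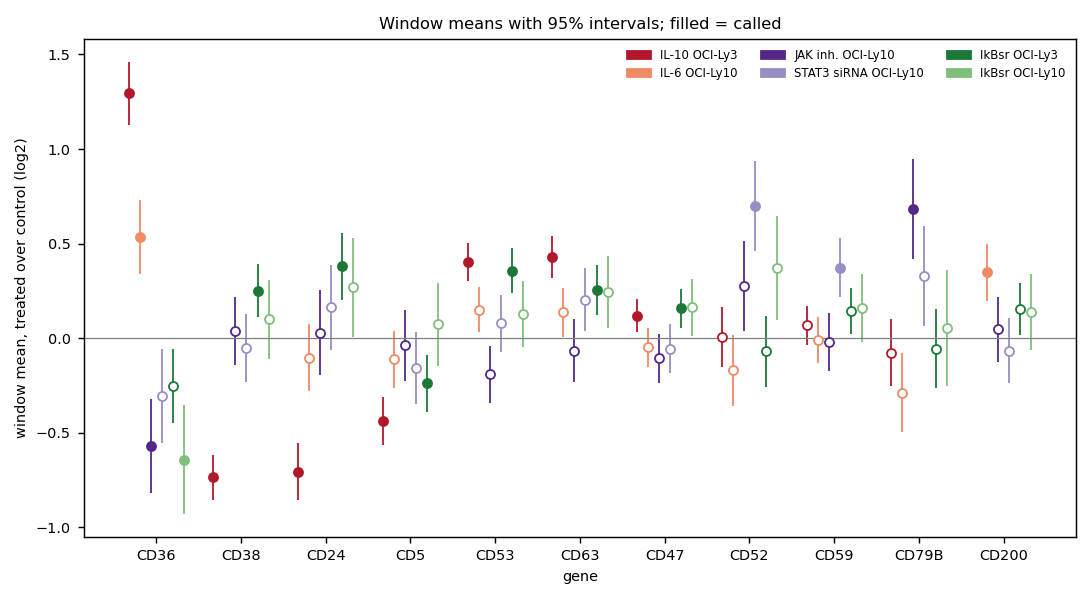
Window means (y axis, log2 ratio of treated over control) with 95% intervals from limma for 11 members (x axis) in the 6 experiments (colours); filled points are called and untested ones are left out. CD36 spans from 1.29 with IL-10 to -0.64 with the super-repressor in OCI-Ly10, and CD38 and CD24 are below 0 with IL-10 and above 0 with the super-repressor.

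Surface antigen genes with other kinds of symbols were counted beside the members, from a list of B cell antigens of which 45 were measured. IL-10 raised 14 and lowered 8 of the 45, where 16.1% of all genes rose and 19.2% fell. Among the risers was the IL-2 receptor chain IL2RB (0.76 ± 0.08), and among the fallers were the costimulatory ligand ICOSLG (-1.03 ± 0.06) and the IL-10 receptor chain IL10RA (-0.67 ± 0.05). The super-repressor raised 3 and lowered 6 of 44 in OCI-Ly3, where 9.16% of all genes rose and 4.87% fell. The adhesion ligand ICAM1 fell most there (-0.66 ± 0.07). In OCI-Ly10 the super-repressor raised 2 of 45, CXCR4 (0.44 ± 0.09) and the plasma cell receptor TNFRSF17 (0.51 ± 0.11), where 0.221% of all genes rose. Both were also called higher in OCI-Ly3 (CXCR4 0.42 ± 0.06, TNFRSF17 0.63 ± 0.07). IL-6 raised 3 and lowered 1 of 37, where 3.48% of all genes rose and 1.06% fell. STAT3 siRNA lowered 1 of 45, the integrin chain ITGAL (-0.38 ± 0.09), where 2.05% of all genes fell. JAK inhibitor I raised 1 of 45, IL10RA (0.36 ± 0.08), where 1.09% of all genes rose.

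Lists of cell type markers were read the same way, as ratios only. The shares of all genes given with the first IL-10 count hold for each list. Of 6 B cell markers measured, IL-10 raised 2 (CD72 and CD22) and lowered 1 (CD79A), where 16.1% of all genes rose and 19.2% fell. Of 9 T and NK cell markers it raised 1 (CD3E), with the list's means between -0.20 and 0.17. Of 3 myeloid markers it raised CD14 and CD68 and lowered FCGR3A (-0.28 ± 0.09). Each array compares a single lymphoma line with itself, and whether the cultures held any other cell type was not tested. In the super-repressor, siRNA and inhibitor windows, no T, NK or myeloid marker was called. With IL-6 LCK was (0.29 ± 0.07), 1 of 6 T and NK markers tested, where 3.48% of all genes rose. Of the 6 B cell markers, the super-repressor in OCI-Ly3 lowered PAX5 (-0.22 ± 0.06), where 4.87% of all genes fell. JAK inhibitor I raised CD79B, where 1.09% of all genes rose.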

How the data were processed

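The authors deposited a table of log ratios of Cy5 over Cy3, read here as log2, with 1 column per array; how background was corrected and arrays normalized is not given in the sources used here. Probes with 1 gene symbol were used, each array was centred on its median and probes were averaged per gene. A gene was tested in a window if it had a value on at least 75% of the arrays and at each time point. One limma 3.58.1 model (R 4.3.3) over all 40 arrays, with a mean per experiment and time point, gave window means, SE and p-values, adjusted by Benjamini-Hochberg over all genes tested and called under 0.05. The code was tested on simulated data. Named were members called in any comparison, the highest and lowest member of each experiment, CD38, CD24, CD5 and CD52, with some members singled out after their values were seen. Members and lists were chosen with earlier results of these data known. Same-numbered replicates deviated together with IL-10 (correlations 0.376 to 0.577) and IL-6 (0.193 to 0.269), which pairs them. STAT3 siRNA (0.299) and JAK inhibitor I (0.203) allowed 1 correlation each. The main tests do not use the pairing. Replicate numbers come from the array titles. With the super-repressor in OCI-Ly3 the correlations were -0.319 to 0.320, so there the numbers do not pair the arrays. The replicate block and the identifier-run block each applied 1 correlation, 0.269, to all 40 arrays. It was not estimated for each experiment, so it can be too high for the OCI-Ly3 super-repressor and too low for IL-10. Alternatives changed the centring, scaling, probe summary, filter, source of the spread, replicate block and identifier runs, or left out arrays. Start windows came from RefSeq, in which 42 of the 59 members were found. Channel intensities were not used here.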

Additional observations from a re-analysis of the deposited data

Results flagged for a closer look

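For 15 members the IL-10 effect differed between late (24, 48 and 96 h) and early (1, 3 and 6 h) times in OCI-Ly3, by limma's test of the difference. Late minus early was 0.95 for CD180, 0.80 for CD226, 0.77 for CD72, 0.62 for CD48, 0.38 for CD63, 0.34 for CD68 and 0.31 for CD3E. It was -0.78 for CD82, -0.66 for CD36, -0.65 for CD24, -0.57 for CD5, -0.50 for CD320, -0.50 for CD79A, -0.37 for CD1A and -0.36 for CD59. For 4 members the effect of IL-10 in OCI-Ly3 differed from that of IL-6 in OCI-Ly10 over the shared times: 1.11 for CD36, -0.79 for CD38, -0.38 for CD24 and -0.38 for CD1D. No group of replicates had enough arrays for a test of a single array standing apart.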

How the results depend on the processing

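Of 62 called member results, 26 held under every alternative run and 0 reversed. With arrays scaled to equal spread, 8 members were called with the super-repressor in OCI-Ly10, 11 with IL-6 and 8 in late minus early. Of all genes, 238 of 4515, 455 of 3301 and 295 of 4383 were. With a value required on every array, 1 was called with IL-6. With the replicate block, the calls were 4 with the super-repressor in OCI-Ly3, 0 in OCI-Ly10 and 2 in IL-10 minus IL-6, and 11 of the 62 results lost their call. With identifier runs as a random block they were 1, 0 and 2 in these comparisons and 0 with IL-6, and 18 results lost their call. In the IL-10 window, the replicate block ended the calls of CD164, CD320, CD4 and CD47. Fits on an experiment's own arrays called 0 with STAT3 siRNA, 0 with JAK inhibitor I and 4 in late minus early, and could not be run for the super-repressor in OCI-Ly10, which has no residual degrees of freedom. Leaving out single arrays gave 3 to 10 calls with the super-repressor in OCI-Ly3 (3 without 6 h replicate 1, 2 h replicate 2 or 4 h replicate 2, and 10 without 2 h replicate 1), 0 to 1 in OCI-Ly10, 1 to 3 with IL-6, 22 to 28 with IL-10, 1 to 3 with STAT3 siRNA, 1 to 2 with JAK inhibitor I, 10 to 18 in late minus early, 2 to 5 in IL-10 minus IL-6 and 0 in the line difference. Leaving out both 2 h arrays was chosen after seeing the data and ended the calls of CD63, CD47 and CD5. The cause of these changes was not tested. The number of arrays limits the precision, and 1 array at 48 h, 96 h and every OCI-Ly10 super-repressor time gives no replicate there.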
